A study of Mus musculus with 12 samples.

Results

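The genes described here encode core proteins of the spliceosome and the serine/arginine-rich (SR) proteins that guide it to splice sites. They are all genes whose single symbol in the platform annotation begins with Srsf, Snrp, Sf3, U2af or Prpf. The rule found 43 genes among the 18193 on the array, namely 10 Srsf, 9 Snrp, 9 Sf3, 3 U2af and 12 Prpf genes, carried by 116 probe sets. Each gene was read by its brightest probe set, the one with the highest mean log2 intensity over the 12 arrays. That probe set passed the filter on dim signals, a log2 value above 5 (an intensity above 32) on at least 3 of the 12 arrays, in 37 of the 43 genes. The other 6 genes were too dim to test.

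The arrays measured mRNA in CF1 mouse eggs at metaphase II, the stage at which an ovulated egg waits for fertilization. Full-grown oocytes at the germinal vesicle stage had been injected with a mixture of siRNA pools against Dcp1a and Dcp2 (Dcp1a+Dcp2 siRNA, the double knockdown), with the pool against Dcp1a alone, with the pool against Dcp2 alone, or with a control siRNA. All oocytes, the control-injected ones included, were then held in milrinone, which keeps oocytes in meiotic arrest, for 20 h and matured without it for 18 h. Each of the 4 groups had 3 biological replicates, each a pool of 30 eggs, and the sources used here do not give the number of females behind a pool. Dcp2 is the enzyme that removes the 5′ cap from mRNA, and Dcp1a is its cofactor.

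The spliceosome removes introns from nuclear precursor RNA and is built from small nuclear ribonucleoproteins (snRNPs), each a small RNA with a ring of Sm proteins and particle-specific proteins. SR proteins bind exons and recruit the snRNPs to nearby splice sites. Full-grown oocytes have largely stopped transcription, so the mRNAs for these proteins in the egg are mostly stored maternal messages made during growth.

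Values are intensities on the linear GCRMA scale, which is relative within an array and has a floor of 4.9. A change in total mRNA per egg was not measured, and a pool of 30 eggs does not show how single eggs differed. The Dcp1a probe set read 517.7 to 1233.3 in the double knockdown and 589.3 to 1235.5 after Dcp1a siRNA, against 5384.8 to 12427.1 in control eggs. The Dcp2 probe set read 4.9 to 5.0 in the double knockdown and after Dcp2 siRNA, against 30.4 to 81.8 in control eggs. All 10 egg markers examined were above 32 on every array, and 0 of 11 cumulus or granulosa cell markers were. The summed egg marker signal ranged from 136824 to 139473 in the double knockdown, against 80899 to 113677 in control eggs, and its part in the results below was not tested. A pair of arrays stood apart, in that each correlated more with every Dcp1a siRNA array than with any array of its own group. Control replicate 1 correlated at r = 0.978 to 0.988 with the Dcp1a siRNA arrays, against 0.938 and 0.954 with the other control arrays. Dcp2 siRNA replicate 2 correlated at 0.978 to 0.985 with the Dcp1a siRNA arrays, against 0.938 and 0.963 within its own group. The other control arrays were also about as close to the Dcp1a siRNA arrays as to each other. Control replicate 2 correlated at 0.958 to 0.972 and replicate 3 at 0.958 to 0.970 with the Dcp1a siRNA arrays, against 0.967 between them. The labels name no batch.

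The first question was how the splicing factor mRNAs of the egg differed from control after siRNA against both Dcp1a and Dcp2. Only 1 of the 37 genes passed the test in the double knockdown, Srsf10, which fell to 29.8% of control. The test was limma on log2 values of all 12 arrays, and a gene counts as called at a Benjamini-Hochberg adjusted p under 0.05 over 11593 probe sets. The 1 called gene is 2.70% of the genes tested, against 8.42% of all 6996 genes read in the same way (6.78% higher and 1.64% lower). The family was not called more often than the array at large. At an unadjusted p under 0.05, 5 of the 37 were higher and 7 lower than control (32.4%, against 28.1% of all genes). The median log2 change was -0.10 over the 37 genes and 0.00 over all genes. The groups did not overlap for 9 of the 37 genes (24.3%), 3 higher and 6 lower in the double knockdown, against 25% of all genes (13.6% higher and 11.4% lower). For 17 of the 37 genes (45.9%) the 95% interval of the change lay wholly within 2-fold of control, against 45.8% of all genes. For the remaining genes these arrays left room for a 2-fold difference.

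**Figure D1:**
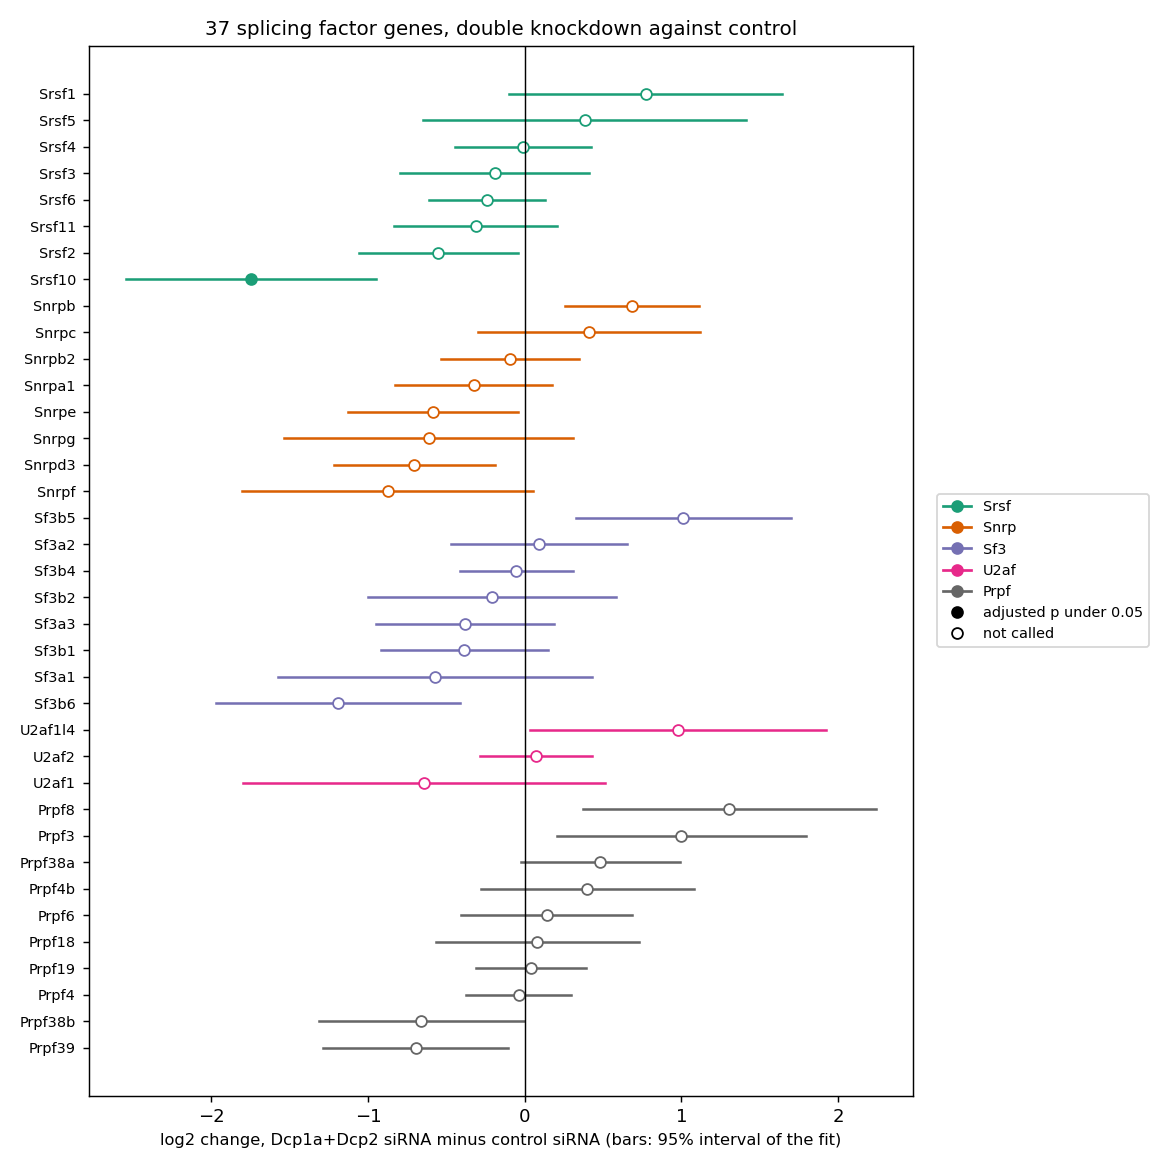
Log2 change of the double knockdown minus control for the 37 tested genes, grouped by symbol family, with the 95% interval of the limma fit as bars. Filled points have an adjusted p under 0.05. Srsf10, at -1.75, is the 1 filled point, and most other intervals cross 0.

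Leaving out single arrays moved this count. It was 6 without control replicate 1 (Prpf39, Prpf8, Sf3b5, Sf3b6, Srsf10 and U2af1l4), where 21.7% of all genes were called. It was 0 without control replicate 2 (3.86% of all genes) or without double knockdown replicate 2 (3.76%). It was 2 without control replicate 3 (8.98%), Dcp2 siRNA replicate 2 (10.7%) or 3 (9.06%), or double knockdown replicate 1 (4.43%) or 3 (10.1%). Without both control replicate 1 and Dcp2 siRNA replicate 2, an alternative chosen after the data were seen, 8 of the 37 genes were called, 3 higher and 5 lower, against 28.4% of all genes.

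Among the SR protein genes, Srsf10 had the smallest p against control. Srsf10 is an SR-related splicing regulator that turns into a repressor of splicing when it is dephosphorylated. Its brightest probe set (1418527_a_at) read 217.3, 158.9 and 117.3 in the double knockdown, 550.3, 465.2 and 437.6 after Dcp1a siRNA, 394.0, 350.4 and 162.8 after Dcp2 siRNA, and 686.1, 609.3 and 367.4 in control eggs. All 3 double knockdown arrays lay below all Dcp1a siRNA and all control arrays, whereas the Dcp2 siRNA arrays overlapped the double knockdown through replicate 3. The log2 change was -1.75 ± 0.36 against control (SE, adjusted p = 0.0135, limma) and -1.60 ± 0.36 against Dcp1a siRNA (adjusted p = 0.0158). It was -0.92 ± 0.36 for Dcp2 siRNA against control (adjusted p = 0.425) and -0.15 ± 0.36 for Dcp1a siRNA against control (adjusted p = 0.947), neither of which passed. The call against control ended without control replicate 2 (adjusted p = 0.0616) and without double knockdown replicate 2 (adjusted p = 0.0538), and over 21 alternatives the log2 change ran from -2.02 to -1.53, with adjusted p from 0.00326 to 0.0964. The call against Dcp1a siRNA ended without Dcp1a siRNA replicate 1 (adjusted p = 0.0647) or 2 (0.0516) and without double knockdown replicate 2 (0.0572). Another Srsf10 probe set (1418526_at) read 83.7, 92.3 and 153.5 in the double knockdown, against 184.4, 254.1 and 250.0 in control eggs. It also fell, by 1.10 ± 0.30 on the log2 scale (SE, adjusted p = 0.0432), a call kept in 10 of its 21 alternatives. It was lost without control replicate 2 or 3, any 1 of the Dcp1a siRNA arrays, Dcp2 siRNA replicate 1, or double knockdown replicate 1 or 2 (adjusted p from 0.0631 to 0.162). The remaining Srsf10 probe sets did not share the difference, with log2 changes of -0.12 (adjusted p = 0.789) and -0.04 (adjusted p = 0.95). Against Dcp1a siRNA no other Srsf10 probe set was called, and the probe sets disagreed in sign. Probe set 1423982_at read 73.7, 82.8 and 94.2 in the double knockdown, against 75.8, 97.8 and 61.6 after Dcp1a siRNA.

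Srsf1, which helps the U1 snRNP bind the 5′ splice site, was the SR gene with the highest values in the double knockdown relative to Dcp1a siRNA. It read 321.2, 231.8 and 346.6 in the double knockdown, 105.6, 111.9 and 150.6 after Dcp1a siRNA, 284.6, 143.6 and 118.7 after Dcp2 siRNA, and 117.0, 144.5 and 306.6 in control eggs. The double knockdown and Dcp1a siRNA arrays did not overlap, while control replicate 3 lay among the double knockdown arrays. The log2 change against Dcp1a siRNA was 1.29 ± 0.40 (adjusted p = 0.0586, limma), short of the threshold, and passed after median centring (adjusted p = 0.0368). It also passed without control replicate 1 (0.0465) or 3 (0.0267) or Dcp2 siRNA replicate 1 (0.0409) or 3 (0.0498). Both other Srsf1 probe sets had the same sign, at 1.04 and 0.91.

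Srsf4, the brightest of the SR genes, stayed within 1.72-fold over all 12 arrays, between 2696.4 and 4627.5, and its log2 change was -0.01 ± 0.20 against control (adjusted p = 0.982, limma). Srsf6 read 367.2, 441.1 and 440.7 in the double knockdown, against 494.7, 478.7 and 497.6 in control eggs. Its groups did not overlap, yet the log2 change of -0.24 ± 0.17 did not pass (adjusted p = 0.353). Srsf3, the smallest SR protein, which also takes part in mRNA export, read 638.6, 614.8 and 579.3 after Dcp1a siRNA, against 574.1, 1243.2 and 1028.1 in control eggs. Control replicate 1 lay below all 3 Dcp1a siRNA arrays and the other control arrays above them (log2 change -0.56 ± 0.28, adjusted p = 0.853). Srsf2, Srsf5 and Srsf11 passed in no comparison with all arrays and spanned 182.0 to 444.9, 72.2 to 280.3 and 280.8 to 531.0 over the 12 arrays. Srsf9, at 6.0 to 18.8, and Srsf12, at 4.9 to 5.0, were too dim to test.

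**Figure D2:**
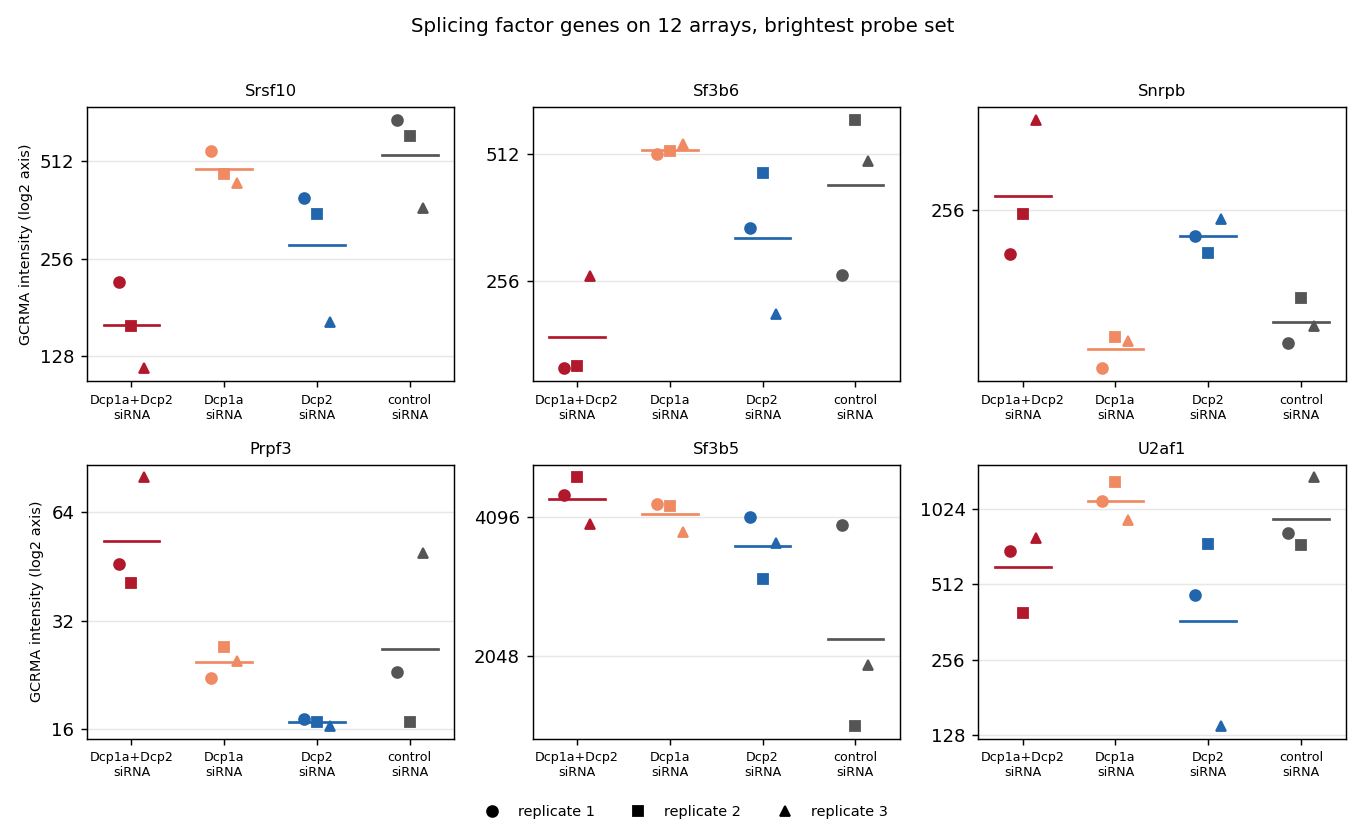
GCRMA intensity (log2 axis) of 6 splicing factor genes on each of the 12 arrays, with a bar at the geometric mean of each group and a symbol for each replicate. The Srsf10 points of the double knockdown lie below those of Dcp1a siRNA and control, and the control points of Sf3b5 and the Dcp2 siRNA points of U2af1 are spread widely.

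The Sm proteins form the ring around the small nuclear RNA that the U1, U2, U4 and U5 particles share. Snrpb, whose B protein is part of that ring, read 217.2, 252.4 and 358.9 in the double knockdown, 141.3, 158.8 and 156.5 after Dcp1a siRNA, 232.1, 218.2 and 247.4 after Dcp2 siRNA, and 155.6, 184.3 and 165.8 in control eggs. Every array that received Dcp2 siRNA, alone or with Dcp1a siRNA, lay above every array that did not. Snrpb rose against Dcp1a siRNA by 0.83 ± 0.19 on the log2 scale, to 178% (SE, adjusted p = 0.0189, limma). Against control the log2 change was 0.68 ± 0.19 (adjusted p = 0.0538) and that of Dcp2 siRNA against control was 0.47 ± 0.19 (adjusted p = 0.425), neither past the threshold. The change against control passed without double knockdown replicate 1 (adjusted p = 0.0478). The call against Dcp1a siRNA ended without any 1 of the 3 Dcp1a siRNA arrays (adjusted p of 0.0781, 0.058 and 0.062) and without double knockdown replicate 2 (adjusted p = 0.0506). The probe set is of a type (suffix _s_at) whose probes can match related transcripts. Snrpn, the closest relative of Snrpb, read 4.9 to 6.3 and was not tested.

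Snrpd3, Snrpe, Snrpf and Snrpg, which encode further Sm proteins, had lower means than control in the double knockdown and after Dcp2 siRNA, but passed in no comparison with all arrays. Snrpd3 read 4480.5, 2927.4 and 4907.5 in the double knockdown, 6871.1, 6728.6 and 6385.0 after Dcp1a siRNA, 4844.7, 5988.4 and 3813.9 after Dcp2 siRNA, and 5870.5, 7523.2 and 6301.2 in control eggs. All 3 double knockdown arrays lay below all control arrays, with a log2 change of -0.70 ± 0.23 (adjusted p = 0.0858, limma). Without control replicate 1 and Dcp2 siRNA replicate 2 it was -0.78 and passed (adjusted p = 0.0395). Against Dcp1a siRNA Snrpd3 also passed without Dcp2 siRNA replicate 2 or 3 or double knockdown replicate 3. Its other probe set gave -0.19 (adjusted p = 0.488). Snrpg, the brightest Snrp gene, read 12734.5, 8561.2 and 18741.3 in the double knockdown, 14851.8, 21488.9 and 6354.8 after Dcp2 siRNA, and 14080.7, 22770.2 and 22745.7 in control eggs, and its log2 change in the double knockdown was -0.61 ± 0.42 (adjusted p = 0.341). For Snrpe the log2 change was -0.59 ± 0.25 (adjusted p = 0.158) and for Snrpf -0.88 ± 0.42 (adjusted p = 0.199). Snrpf passed after Dcp2 siRNA against control without the 2 arrays that stood apart. These genes are given because they belong to the same ring, and were picked out after their values were seen.

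Arrays of the same group differed. Snrpe, Snrpf and Snrpg were lowest on Dcp2 siRNA replicate 3 (8314.1, 1583.7 and 6354.8), and Snrpd3 was lowest on double knockdown replicate 2. Dcp2 siRNA replicate 2, one of the arrays that stood apart, read 16200.6, 5497.3 and 21488.9 for the same 3 genes, inside the range of the control arrays. Snrpd1 and Snrpd2, the other Sm ring genes, share their probe sets with other gene symbols in the annotation and were not analysed here.

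**Figure D3:**
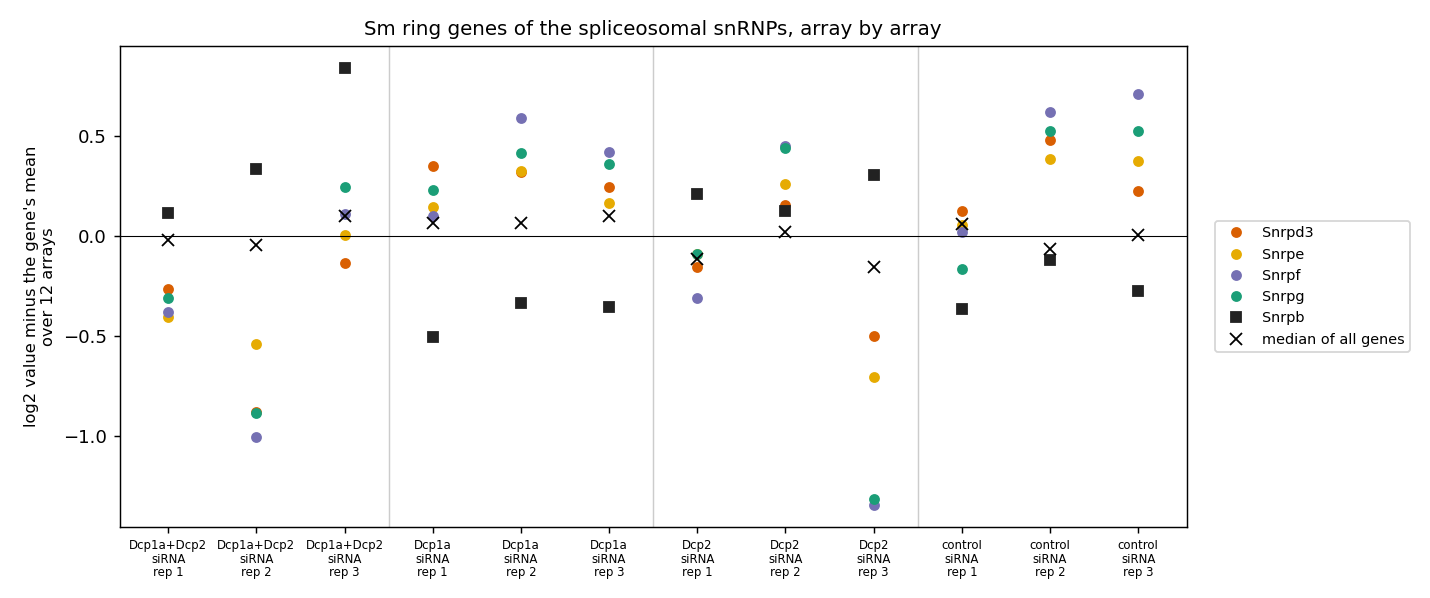
Log2 value minus the gene's own mean over 12 arrays for 5 Sm ring genes, with crosses at the median of all genes on that array. Snrpd3, Snrpe, Snrpf and Snrpg are lowest on Dcp2 siRNA replicate 3 and double knockdown replicate 2, where Snrpb lies above its mean.

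The particle-specific snRNP genes passed in no comparison with all arrays. Snrpa1 and Snrpb2, which encode proteins of the U2 snRNP, spanned 2380.7 to 5116.1 and 3284.6 to 5336.5 over the 12 arrays. Snrpc, of the U1 snRNP, spanned 32.3 to 97.5, with its highest value on double knockdown replicate 3.

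The SF3A and SF3B complexes are parts of the U2 snRNP that hold it at the branch point. Sf3b6, whose protein lies close to the branch point adenosine, read 158.5, 160.7 and 262.8 in the double knockdown, 510.6, 519.8 and 538.3 after Dcp1a siRNA, 341.8, 461.5 and 213.6 after Dcp2 siRNA, and 264.0, 616.1 and 492.7 in control eggs. The double knockdown arrays lay below the Dcp1a siRNA and control arrays, though the highest of them, at 262.8, was close to control replicate 1 at 264.0. Sf3b6 fell by 1.47 ± 0.35 on the log2 scale against Dcp1a siRNA, to 36.1% (SE, adjusted p = 0.0212, limma). Against control its log2 change was -1.19 ± 0.35 (adjusted p = 0.0622), and without control replicate 1 it passed, at -1.55 (adjusted p = 0.0102). It also passed without Dcp2 siRNA replicate 2 (0.0452) or 3 (0.0432) and without double knockdown replicate 3 (0.0424). The call against Dcp1a siRNA ended without any 1 of the 3 Dcp1a siRNA arrays (adjusted p of 0.0646, 0.0693 and 0.0764) and without double knockdown replicate 1 (0.0848) or 2 (0.089). A dimmer Sf3b6 probe set (1417055_at) fell by 1.25 ± 0.35 against Dcp1a siRNA (adjusted p = 0.0389), a call lost without the same 5 arrays (adjusted p from 0.0905 to 0.163). The remaining one had a log2 change of -0.66 (adjusted p = 0.0628).

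Sf3b5 encodes the smallest SF3B subunit. It read 4586.4, 5009.3 and 3955.6 in the double knockdown, 4380.9, 4338.9 and 3802.9 after Dcp1a siRNA, 4114.1, 3010.7 and 3599.4 after Dcp2 siRNA, and 3947.4, 1438.4 and 1949.7 in control eggs. Control replicates 2 and 3 lay below all 9 knockdown arrays, and control replicate 1 lay among them. With all arrays the log2 change was 1.01 ± 0.31 for the double knockdown (adjusted p = 0.0694, limma), 0.90 ± 0.31 for Dcp1a siRNA (adjusted p = 0.853) and 0.67 ± 0.31 for Dcp2 siRNA (adjusted p = 0.425), all against control. Without control replicate 1 all 3 passed, at 1.42 (adjusted p = 0.00258), 1.31 (adjusted p = 0.017) and 1.08 (adjusted p = 0.0394). The other Sf3b5 probe set gave 1.37 for the double knockdown (adjusted p = 0.0785). These 3 contrasts share the same control arrays.

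Sf3b1, the large subunit that clamps the branch point helix and the brightest Sf3 gene, read 7099.9, 6670.6 and 7718.0 in the double knockdown, against 7976.3, 10502.2 and 9712.2 in control eggs. The groups did not overlap, but the log2 change of -0.38 ± 0.24 did not pass (adjusted p = 0.304, limma), and its 4 probe sets disagreed in sign. Sf3b4 varied by only 1.45-fold over the 12 arrays, from 969.5 to 1409.3. Its Dcp1a siRNA values of 1409.3, 1162.0 and 1310.5 lay above the control values of 1052.6, 1033.3 and 1048.0, with a log2 change of 0.30 ± 0.16 (adjusted p = 0.853). Sf3a1 (58.9 to 357.8), Sf3a2 (3453.0 to 7121.1), Sf3a3 (940.4 to 2194.9) and Sf3b2 (2816.6 to 9051.0) passed in no comparison with all arrays. Sf3b3, at 8.3 to 35.3, was too dim to test.

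The U2AF heterodimer recognises the 3′ splice site, its large subunit U2af2 binding the polypyrimidine tract and its small subunit U2af1 the terminal AG. U2af2 was among the steadiest genes of the set. It read 769.6, 739.8 and 687.0 in the double knockdown, 788.8, 760.8 and 824.7 after Dcp1a siRNA, 681.5, 667.7 and 827.5 after Dcp2 siRNA, and 600.1, 755.0 and 741.4 in control eggs. Its log2 change in the double knockdown was 0.07 ± 0.16 (adjusted p = 0.781, limma), with an interval inside 2-fold. U2af1 was the most variable of the set, with a 9.82-fold range. It read 466.5, 744.6 and 139.4 after Dcp2 siRNA, against 818.2, 736.5 and 1368.4 in control eggs (log2 change -1.36 ± 0.53, adjusted p = 0.425), and Dcp2 siRNA replicate 2 overlapped the control arrays. Without that array and control replicate 1 the change was -1.98 (adjusted p = 0.0389). In the double knockdown U2af1 read 698.8, 395.4 and 783.9 (log2 change against control -0.64 ± 0.53, adjusted p = 0.422). U2af1l4, a relative of U2af1, spanned 235.9 to 968.5 and passed in no comparison with all arrays.

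The PRPF proteins act mainly in the U4/U6.U5 tri-snRNP and in the complexes that activate the spliceosome. Prpf3, a U4/U6 snRNP protein, read 46.1, 40.8 and 80.1 in the double knockdown, 22.2, 27.1 and 24.8 after Dcp1a siRNA, 17.1, 16.7 and 16.3 after Dcp2 siRNA, and 23.0, 16.7 and 49.2 in control eggs. All double knockdown arrays lay above all arrays of either single knockdown, but control replicate 3 lay among them. Folds of genes whose dimmer group averaged no more than 32 are lower bounds computed against that floor, and replicate spread does not enter them. On this basis the level of Prpf3 in the double knockdown exceeded that after Dcp2 siRNA at least 1.66-fold (adjusted p = 0.0179, limma). Prpf3 was above 32 on 4 arrays, the 3 of the double knockdown and control replicate 3, so it passed the filter through the group in which it is high, and its call depends on that. Against control it was higher by at least 1.44-fold, short of the threshold (adjusted p = 0.111), and the change passed without control replicate 3 (adjusted p = 0.00957). The call against Dcp2 siRNA was lost with values under 32 set to 32 (adjusted p = 0.146), without any 1 of the Dcp2 siRNA arrays (adjusted p of 0.0518, 0.0503 and 0.0571) and without double knockdown replicate 3 (adjusted p = 0.0672).

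Prpf8, the large protein at the catalytic centre, read 68.8, 83.6 and 98.2 in the double knockdown, 65.0, 62.3 and 66.5 after Dcp1a siRNA, 45.6, 50.9 and 57.4 after Dcp2 siRNA, and 69.9, 15.0 and 35.6 in control eggs. As with Sf3b5, control replicate 1 lay among the knockdown arrays and the other control arrays below them. The log2 change in the double knockdown was 1.31 ± 0.42 (adjusted p = 0.0824, limma), and 1.84 without control replicate 1 (adjusted p = 0.00475). Prpf19, a ubiquitin ligase of the spliceosome and the brightest Prpf gene, varied by 1.47-fold over the 12 arrays by its brightest probe set. That probe set had a log2 change of 0.04 ± 0.16 (adjusted p = 0.878). The dimmer tested Prpf19 probe sets varied by 1.78-, 1.71- and 3.33-fold, with log2 changes of 0.28, 0.34 and 0.54, none called. Prpf38a, needed for spliceosome activation, read 126.0, 111.5 and 166.6 in the double knockdown, against 104.8, 90.1 and 62.3 after Dcp2 siRNA (log2 change 0.66 ± 0.23, adjusted p = 0.153), and those groups did not overlap. Prpf18, which acts in the last catalytic step of splicing, read 391.4, 358.4 and 344.8 after Dcp1a siRNA, against 412.8, 193.6 and 168.5 in control eggs, where replicate 1 again lay apart (log2 change 0.61 ± 0.29, adjusted p = 0.853). Without control replicate 1 that change was 1.01 (adjusted p = 0.0259). Prpf4 (32.2 to 45.9), Prpf6 (8780.9 to 18149.9) and Prpf38b (249.4 to 580.1) passed in no comparison with all arrays. Prpf31, at 20.3 to 39.7, and Prpf40b, at 9.6 to 12.4, were too dim to test.

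For 2 Prpf genes a dimmer probe set passed where the brightest did not. Prpf39 encodes a protein associated with the U1 snRNP. Its probe set 1452688_at read 15.7, 13.5 and 17.4 in the double knockdown, 55.8, 44.9 and 41.7 after Dcp1a siRNA, 23.1, 15.0 and 21.1 after Dcp2 siRNA, and 47.2, 83.7 and 50.2 in control eggs. The arrays with Dcp2 siRNA, alone or combined, were all below 32, and the others all above it. The double knockdown lay at least 1.82-fold below control (adjusted p = 0.00125, limma) and at least 1.47-fold below Dcp1a siRNA (adjusted p = 0.00226). With values under 32 set to 32 the call against Dcp1a siRNA was lost (adjusted p = 0.108). Dcp2 siRNA alone also lay at least 1.82-fold below control, without passing (adjusted p = 0.155). The call against control was kept in all 20 alternatives in which the probe set was tested. The probe set was above 32 on the 6 control and Dcp1a siRNA arrays, so it passed the filter through the groups in which it is high. The brightest Prpf39 probe set read 74.7, 81.6 and 97.1 in the double knockdown, against 96.9, 160.0 and 162.5 in control eggs, and its log2 change of -0.70 ± 0.27 did not pass (adjusted p = 0.131). Without control replicate 1 it was -0.94 (adjusted p = 0.0281). A further, dimmer one did not pass (adjusted p = 0.489).

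The Prpf4b probe sets, for a kinase of the tri-snRNP, disagreed. Probe set 1425497_a_at read 93.1, 46.4 and 17.8 in the double knockdown, against 157.9, 188.7 and 117.3 in control eggs, a fall of 1.84 ± 0.46 on the log2 scale (adjusted p = 0.0324, limma). The brightest Prpf4b probe set read 235.8, 218.6 and 218.4 in the double knockdown, against 107.1, 233.6 and 196.8 in control eggs, a log2 change of 0.40 ± 0.31 (adjusted p = 0.4). A further one gave -0.41 (adjusted p = 0.56). The call was kept in 13 of 21 alternatives and ended, among others, without control replicate 2 (adjusted p = 0.133), without double knockdown replicate 2 (0.0921), without any 1 of the Dcp1a siRNA arrays (0.0523, 0.0529 and 0.0504) and without Dcp2 siRNA replicate 1 (0.0506).

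**Figure D4:**
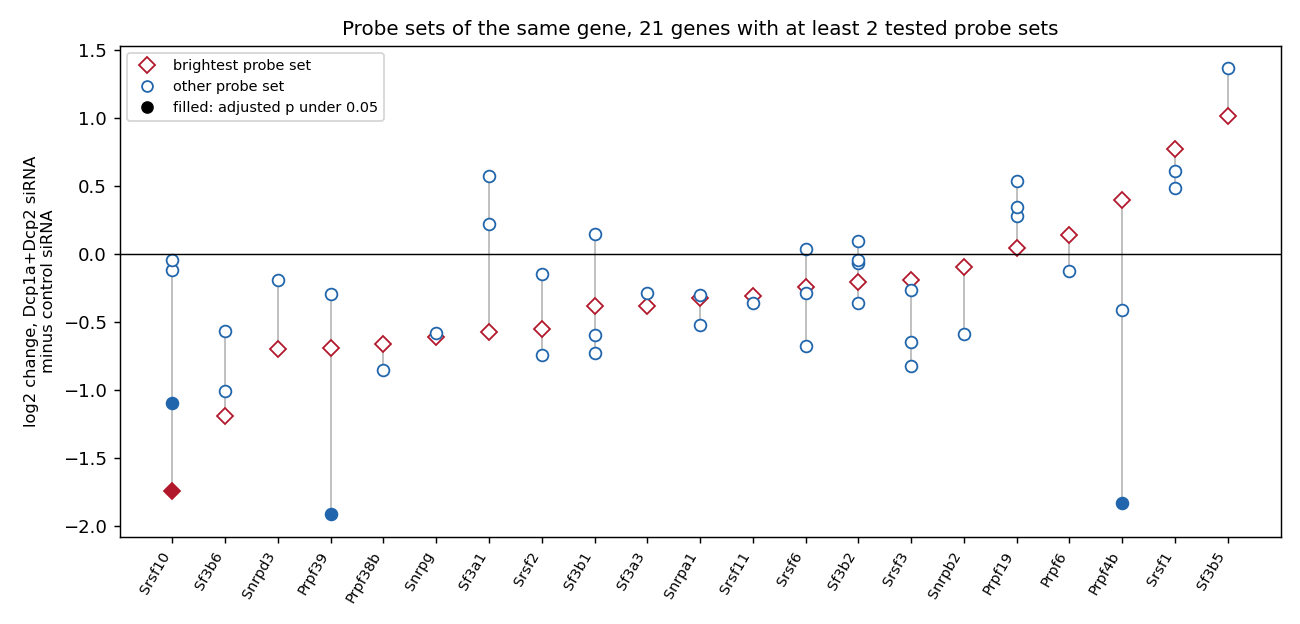
Log2 change of the double knockdown minus control for each tested probe set of the 21 genes with at least 2 of them, brightest as diamonds and others as circles, filled where the adjusted p is under 0.05. The filled circles of Prpf39 and Prpf4b lie far below their brightest probe sets, and the Prpf4b brightest probe set lies above 0.

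Across the set, 21 of the 37 genes had at least 2 tested probe sets. In the double knockdown against control all probe sets of a gene had the same sign in 15 of the 21 (71.4%), against 60.2% of the 2480 such genes on the array. Prpf4b, Prpf6, Sf3a1, Sf3b1, Sf3b2 and Srsf6 had mixed signs. Counting a gene as called when any of its probe sets passed gave 3 of 37 (Prpf39, Prpf4b and Srsf10, all lower), or 8.11%, against 11.4% of all genes.

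The single knockdowns asked which differences arose after siRNA against Dcp1a alone or Dcp2 alone. With limma 0 of the 37 genes were called after Dcp1a siRNA, against 0.0572% of all genes, and 0 after Dcp2 siRNA, against 0.0286%. At an unadjusted p under 0.05 the counts were 2 higher and 0 lower after Dcp1a siRNA (Sf3b5 and Prpf8, 5.41%, against 4.9% of all genes). After Dcp2 siRNA they were 1 higher and 2 lower (Snrpb, U2af1 and Srsf10, 8.11%, against 10.5% of all genes). The groups did not overlap for 5 genes after Dcp1a siRNA (13.5%, against 11.8% of all genes) and for 2 after Dcp2 siRNA (5.41%, against 7.06%). The median SD of log2 values within a group was 0.31 in the double knockdown, 0.11 after Dcp1a siRNA, 0.33 after Dcp2 siRNA and 0.37 in control eggs. Over the 37 genes the Dcp1a siRNA arrays were the most alike. Over all genes the medians were 0.27, 0.15, 0.37 and 0.36 in the same order. Without control replicate 1, 3 genes were called after Dcp1a siRNA (Prpf18, Prpf8 and Sf3b5, all higher, against 3.22% of all genes) and 1 after Dcp2 siRNA (Sf3b5, against 1.9%). Without both that array and Dcp2 siRNA replicate 2, 8 genes were called after Dcp2 siRNA, 2 higher and 6 lower, against 21.6% of all genes.

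The double knockdown set against each single knockdown asked what the other siRNA added. Against Dcp1a siRNA 3 of the 37 genes (8.11%) were called, Snrpb higher and Srsf10 and Sf3b6 lower, against 11.5% of all genes (8.18% higher and 3.3% lower). By any probe set 5 genes (13.5%) were called, against 15.6% of all genes. The groups did not overlap for 24 of the 37 (64.9%), 10 higher and 14 lower, against 49% of all genes (22.7% higher and 26.3% lower). Against Dcp2 siRNA 1 gene (2.70%), Prpf3, was called, against 6.15% of all genes, and 5 genes (13.5%) did not overlap, against 21%. These comparisons use the same double knockdown arrays as the one with control. The count against Dcp1a siRNA was 0 without Dcp1a siRNA replicate 1 (6.46% of all genes) or 2 (6.05%) or double knockdown replicate 2 (5.62%), and 1 without Dcp1a siRNA replicate 3 (5.73%). It was 5 without control replicate 3 (11.8%), Dcp2 siRNA replicate 2 (17.9%) or 3 (13.7%), or double knockdown replicate 3 (19.7%), and 8 without both arrays that stood apart (22.5%). The count against Dcp2 siRNA was 0 without any 1 of the Dcp2 siRNA arrays or double knockdown replicate 3 (4.67% to 4.93% of all genes). After median centring the calls against Dcp1a siRNA were 3 higher and 2 lower, with 13% of all genes called.

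The departure from additivity, by how much the double knockdown differs from the added single changes, was called for 0 of the 37 genes, against 3.76% of all genes (limma). At an unadjusted p under 0.05 there were 2 (5.41%, against 10.8% of all genes), Prpf3 (adjusted p = 0.0956) and Srsf1 (1.32 ± 0.56, log2, SE, adjusted p = 0.371), both positive. All single knockdown arrays of Prpf3 lay under 32, so the size of its departure depends on the floor and is not given. It passed without control replicate 2 (adjusted p = 0.032), and its adjusted p was 0.274 with values under 32 set to 32. For Srsf10 it was -0.67 ± 0.51 (adjusted p = 0.816), so the data did not separate its change in the double knockdown from a sum of the single changes.

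Other genes of the pathway were read from 3 lists. Of 66 further spliceosome proteins outside the 5 symbol families, 51 were tested, and 6 rose and 1 fell in the double knockdown against control, where 6.78% of all genes were called higher and 1.64% lower. Bud31, a protein of the activated spliceosome, read 4305.5 to 5443.4 in the double knockdown, against 461.1 to 1602.0 in control eggs (log2 change 2.56 ± 0.43, adjusted p = 0.00457, limma). Usp39, a tri-snRNP protein, read 1412.0 to 2356.6, against 253.9 to 457.6 in control eggs (2.19 ± 0.26, adjusted p = 0.000665). Ppil3, a cyclophilin-like peptidyl-prolyl isomerase, read 344.4 to 405.5, against 6.3 to 52.0, higher by at least 10.2-fold (adjusted p = 0.000931). The other 3 that rose were Ddx39b (2.43 ± 0.36), an RNA helicase of splicing and mRNA export, Eftud2 (2.14 ± 0.48), the U5 snRNP GTPase, and Puf60 (1.46 ± 0.37), which binds polypyrimidine tracts. U2surp, a U2-associated SR protein, fell by 1.31 ± 0.35 (adjusted p = 0.0413), while its other tested probe set gave -0.04 (adjusted p = 0.923). Other probe sets of Bud31, Ddx39b and Eftud2 were also called higher (adjusted p = 0.000858, 4.17e-05 and 1.63e-05). These were dim on some arrays, spanning 18.5 to 336.9, 4.9 to 45.0 and 5.2 to 72.6 over the 12 arrays. The other probe sets of Ddx39b and Eftud2 passed the filter through the double knockdown, the group in which they are high. The brightest probe sets of Bud31 (suffix _s_at) and of Ddx39b, Eftud2 and Usp39 (suffix _x_at) are of types whose probes can match other transcripts. The calls of Bud31, Ddx39b, Ppil3 and Usp39 by their brightest probe sets were kept in 21 of 21 alternatives. Those of Eftud2, Puf60 and U2surp were kept in 16, 13 and 10, and each ended without control replicate 2 (adjusted p of 0.0911, 0.133 and 0.16) and without double knockdown replicate 1 (0.0705, 0.101 and 0.121). Leaving out double knockdown replicate 2 ended those of Eftud2 (0.0886) and U2surp (0.166). Leaving out replicate 1 of Dcp1a siRNA ended those of Puf60 (0.0534) and U2surp (0.0663). That of Puf60 also ended without control replicate 1 (0.0513) or double knockdown replicate 3 (0.0716). That of U2surp also ended without control replicate 3, Dcp1a siRNA replicate 2 or 3, or Dcp2 siRNA replicate 1 (adjusted p from 0.0608 to 0.0915). The median log2 change of the 51 genes was -0.19, against 0.00 over all genes. These genes were listed with earlier results of these data known.

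Of 15 tested genes for snRNP assembly and SR protein kinases, 2 rose in the double knockdown against control and 0 fell, against the same 6.78% higher and 1.64% lower of all genes. Gemin7, of the SMN complex that loads Sm rings, was higher by at least 1.68-fold (adjusted p = 0.0447, limma). Its call was kept in 5 of 20 alternatives and ended with values under 32 set to 32 (adjusted p = 0.147) and after median centring (0.0589). Snupn, the import adaptor of assembled snRNPs, was higher by at least 1.55-fold (adjusted p = 0.0304). Gemin7 was above 32 on the 3 double knockdown arrays alone and Snupn on these and 1 other, as was Ppil3, so all 3 passed the filter through the group in which they are high. The calls of Gemin7 and Snupn ended without control replicate 2 (0.148 and 0.0833), Dcp1a siRNA replicate 1 or 2, and double knockdown replicate 1 or 2 (adjusted p from 0.0507 to 0.0921). Of 23 tested hnRNP genes, whose proteins bind precursor RNA and often oppose SR proteins, 0 were called against control. Against Dcp1a siRNA 2 of the 23 were called lower and 0 higher, where 3.3% of all genes were called lower and 8.18% higher. Hnrnph1 fell by 1.60 ± 0.45 (adjusted p = 0.0398) and Hnrnph3 by 1.26 ± 0.36 (adjusted p = 0.0446), and another probe set of Hnrnph1 gave -0.01 (adjusted p = 0.992). Both hnRNP calls ended without control replicate 2, any 1 of the Dcp1a siRNA arrays, Dcp2 siRNA replicate 1, or double knockdown replicate 1 or 2 (adjusted p from 0.0542 to 0.18). In the same comparison 7 of the 51 further spliceosome genes were called higher and 1 lower. Of the 15 assembly and kinase genes 2 were higher and 0 lower. Sart1 (0.64 ± 0.17, adjusted p = 0.0298) and Clns1a (0.87 ± 0.19, adjusted p = 0.0128) were called in that comparison alone. The Sart1 call ended without Dcp1a siRNA replicate 1 (0.113) or 3 (0.123) or any 1 of the double knockdown arrays (0.0767, 0.0637 and 0.0576). That of Clns1a ended without Dcp1a siRNA replicate 2 (0.0583) or 3 (0.0537) or double knockdown replicate 2 (0.0617). After either single siRNA 0 genes of these 3 lists were called against control. Of all genes 0.0572% were called after Dcp1a siRNA and 0.0286% after Dcp2 siRNA.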

How the data were processed

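RNA of 30 eggs per sample was amplified, labelled and hybridised to Affymetrix mouse arrays, per the labels' protocols. The authors made the deposited intensity values with GCRMA, per the submitters' processing notes, a method that subtracts background by probe sequence, puts arrays on a common distribution and combines the probes of a set. The sources used here give no version. Of all values 55.6% were at or under 5, which makes the folds of dim genes depend on this floor. The number of arrays limits precision. Values were taken to log2, and 11593 probe sets with log2 above 5 on at least 3 of 12 arrays were fitted with limma 3.58.1 in R 4.3.3 (group means over all arrays, two-sided, Benjamini-Hochberg adjustment, threshold 0.05). The procedure was tested on simulated data.

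The 43 genes matched the RefSeq GRCm38.p6 table by Entrez number and symbol. Left out were 11 probe sets with several symbols, 1 or more of these families among them. Without a genome no coordinates are given. Values per array are given for 21 genes: those called in any of 6 comparisons, the 8 with the smallest p in the double knockdown against control, the 4 with the smallest p in each other comparison, the brightest of each family, and those with another probe set called or of opposite sign to a called one. Other genes are given by range. The members and lists were chosen with earlier results of these data known. Replicate numbers match across groups, but arrays of the same number did not deviate together (r from -0.69 to 0.39 over 18 pairs), so no block was used. Alternatives covered the filter, the floor, scaling, the fit and each array left out.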

Additional observations from a re-analysis of the deposited data

Results flagged for a closer look

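The results below were picked out because the change with both siRNAs differed from the sum of the single changes in a test of that difference (limma). All 4 are among the 51 tested spliceosome genes outside the 5 symbol families, which were listed with earlier results of these data known. Of all genes 3.76% were called in the same test. The departure was 3.90 ± 0.61 for Bud31 (log2, SE, adjusted p = 0.00553), 3.27 ± 0.51 for Ddx39b (adjusted p = 0.00549), 6.76 ± 0.87 for Ppil3 (adjusted p = 0.00206) and 2.16 ± 0.37 for Usp39 (adjusted p = 0.00928). Ppil3 lay near the floor on most arrays outside the double knockdown, so its value depends on that floor: with values under 32 set to 32 it was 3.82 (adjusted p = 0.000127). It was above 32 on 4 arrays, 3 of them of the double knockdown, and so passed the filter through the group in which it is high. For Ddx39b the value was 3.03 with that setting. The Bud31, Ddx39b and Usp39 probe sets are of types whose probes can match other transcripts. The calls were kept in 20 of 20 alternatives for Ppil3 and in 19 of 20 for Bud31, Ddx39b and Usp39, which lost theirs with no filter on dim probe sets.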

How the results depend on the processing

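Under 21 alternatives 0 of the named changes turned direction among called values, 162 values of named genes lost their call and 36 gained one. In the double knockdown against control, where 1 of the 37 genes was called, the count was 0 with no filter on dim probe sets and with only the arrays compared in the fit (1.69% and 2.27% of all genes, against 8.42%). It was 2 with values under 32 set to 32, after median centring and after quantile normalization, and 3 by any probe set of a gene (8.19%, 8.82%, 9.36% and 11.4%). Against Dcp1a siRNA, where 3 were called, it was 0 with no filter (2.59% of all genes, against 11.5%). It was 5 after median centring (13%), quantile normalization (14%) or by any probe set (15.6%), and 9 with only the arrays compared (23.6%). Against Dcp2 siRNA, where 1 was called, it was 0 with no filter, with a stricter filter (log2 above 6) and with values under 32 set to 32. In these 1.53%, 5.58% and 5.93% of all genes were called, against 6.15%. Median centring turned the split of calls against Dcp1a siRNA to 3 higher and 2 lower, against 1 higher and 2 lower, and moved the median of all probe sets against Dcp2 siRNA to -0.15, against 0.06. Leaving out 1 array gave 0 to 6 calls for the double knockdown against control, 0 to 3 for Dcp1a siRNA, 0 to 1 for Dcp2 siRNA, 0 to 5 for the double knockdown against Dcp1a siRNA, 0 to 1 against Dcp2 siRNA and 0 to 1 for the departure from additivity. The highest counts of the first 3 came without control replicate 1, where 21.7%, 3.22% and 1.9% of all genes were called. The 5 against Dcp1a siRNA came with 11.8% to 19.7%, and the 1 against Dcp2 siRNA with 3.95% to 7.16%. The 1 for the departure came with 4.19%. Without control replicate 1 and Dcp2 siRNA replicate 2, 28.4%, 5.46%, 21.6%, 22.5%, 6.06% and 5.49% of all genes were called, in the order above. The counts of the 37 genes there were 8, 3, 8, 8, 1 and 1. With the replicate number as a block they were 1, 0, 0, 3, 1 and 0, the same as without it. The call of the dimmer Srsf10 probe set against control ended there (adjusted p = 0.0685). So did those of the dimmer Sf3b6 probe set (0.0541), Hnrnph1 (0.0607), Sart1 (0.0614) and U2surp (0.0508) against Dcp1a siRNA. The calls of Gemin7, Puf60, Snupn and U2surp against control also ended (0.0685, 0.0685, 0.053 and 0.0804). With that block 6.62%, 0%, 0.0286%, 8.58%, 5.13% and 2.77% of all genes were called, in the same order of comparisons. The other causes of moved counts were not tested. Folds of genes near the floor, Prpf3 among them, depend on it.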
